A study of Mus musculus with 3 samples.

Results

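The transcripts of the mitochondrial genome were measured as the genes whose names start with mt- in the deposited count tables. Of 37646 genes listed in each table, 30 carried such a name, and all 30 lie on the mitochondrial chromosome (M) in GENCODE M21, the mouse annotation used here on the mm10 build. They comprise 13 mRNAs, 2 rRNAs and 15 tRNAs. The annotation places 37 genes on that chromosome, and the other 7, all tRNA genes (mt-Td, mt-Tg, mt-Th, mt-Tk, mt-Ts1, mt-Tw and mt-Ty), were not analysed here.

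The cells were splenic lymphoma B cells of C57BL/6 mice of the pBIC2 line, which models ABC-DLBCL (diffuse large B cell lymphoma with an activated B cell profile), sorted as B220+GFP+ after dead cells had been excluded with 7AAD. Every library carried the same genotype: p53F/F and Blimp1F/F (floxed alleles of the genes of a tumour suppressor and of a plasma cell regulator), IKK2ca stopF/stopF (an activated kinase of the NF-κB pathway behind a floxed stop), Cg1Cre/+ (a Cre recombinase at the immunoglobulin γ1 locus, which limits recombination to B cells in which that locus is active) and Eµ-hBCL2tg/+ (a human survival gene driven by a lymphoid enhancer). The 3 libraries, named tumours 1, 2 and 3, form 1 group, the labels do not say that they came from separate mice, and normal B cells were not analysed here. All values are therefore levels in these lymphomas and their spread (SD, n = 3), without a test between groups. The RNA was selected with oligo-dT and sequenced as single reads of 50 nt.

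The mitochondrial genome is a compact circle that encodes core subunits of respiratory complexes I, III, IV and V together with the rRNAs and tRNAs of its own ribosome. Both strands are transcribed by the polymerase POLRMT into long precursors, and the tRNAs that lie between the other genes are cut out, which frees the rRNAs and mRNAs. Most genes are read from the heavy strand, and mt-Nd6 and a few tRNAs from the light strand. Mitochondrial mRNAs receive short A tails, the rRNAs shorter ones, and the tRNAs end in CCA, so that selection by oligo-dT captures the kinds of RNA unequally.

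The nuclear genome carries old copies of mitochondrial sequence, and a short read may then fit both places. The sequences below show this for 2 mRNAs. The start of mt-Co2 (chrM:7013-7072, complex IV) is set beside the start of its copy Gm28661 on the minus strand of chromosome 1 (chr1:24615506-24615565). A stretch near the start of mt-Co1 (chrM:5355-5414, complex IV) is set beside its copy Gm13340 on chromosome 2 (chr2:22589561-22589620, minus strand). Capitals mark bases that differ, and the sequences are those of the annotated transcripts on mm10.
mt-Co2: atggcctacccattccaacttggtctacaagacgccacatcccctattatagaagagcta
Gm28661: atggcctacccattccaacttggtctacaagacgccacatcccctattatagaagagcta
mt-Co1: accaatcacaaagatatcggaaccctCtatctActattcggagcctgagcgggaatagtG
Gm13340: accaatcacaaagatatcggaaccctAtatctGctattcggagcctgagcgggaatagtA
The mt-Co2 pair was identical over all 681 aligned bases. The mt-Co1 pair differed at 37 of 1545 bases (97.6% identity), and a read over a differing base can be placed.

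The libraries held 15576975, 16477997 and 17014022 gene counts in tumours 1, 2 and 3. CPM below are TMM-scaled counts relative to library size, and 3 counts, the limit that a count of 0 allows, correspond to 0.199, 0.184 and 0.169 CPM. All 10 B cell markers were present in each tumour, with summed levels of 20459.9, 18923 and 13826 CPM. The sum does not describe most markers: 1 was highest in tumour 1, 5 in tumour 2 and 4 in tumour 3. Their medians were 853, 1338 and 905 CPM. Of 10 T cell markers, 9 were highest in tumour 3 and 1 in tumour 1. The sum of the 10 was 1414 CPM in tumour 3 against 337 CPM in tumour 1 and 304 CPM in tumour 2. Their medians lay further apart, at 1.62, 7.63 and 123 CPM in tumours 1, 2 and 3, and Cd3e was at 0 in tumour 1. The summed macrophage and monocyte markers were at 35.9, 406 and 179.5 CPM, the neutrophil markers at 0.199, 17.04 and 42.9 CPM, and the erythroid markers at 9.94, 22.9 and 11.3 CPM. Summed proliferation genes were at 2924, 1501 and 3136 CPM. Summed handling stress genes (immediate early and heat shock) were at 2227, 3619 and 5445 CPM.

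Mitochondrial transcripts were a large part of each library and were highest in tumour 1. They took 950455, 838718 and 716371 counts in tumours 1, 2 and 3, which is 6.10%, 5.09% and 4.21% of each library (mean 5.13% ± 0.946, SD, n = 3). The exact 95% binomial intervals of these shares were 6.09% to 6.11%, 5.08% to 5.10% and 4.20% to 4.22% and cover counting error only. The mRNAs gave 84.1%, 88.9% and 92.7% of the mitochondrial counts, the rRNAs 15.4%, 10.7% and 6.94%, and the tRNAs 0.427%, 0.369% and 0.313%. All 3 kinds of RNA ran in the same order in summed CPM, with tumour 1 highest and tumour 3 lowest. In this order the T cell and handling stress sums were highest where mitochondrial RNA was lowest; their part in the difference was not tested. In sorted bulk cells, fewer cells of a type and less RNA per cell cannot be told apart.

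Ranked among all genes by mean CPM, mt-Co1 was the most abundant, mt-Cytb ranked 3, mt-Nd1 ranked 4, mt-Nd5 ranked 7, mt-Rnr2 ranked 8 and mt-Nd2 ranked 9. These ranks are of read counts and favour long genes. At the other end, mt-Tf, mt-Atp8, mt-Atp6, mt-Co3 and mt-Nd4l had no count in any tumour.

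**Figure D1:**
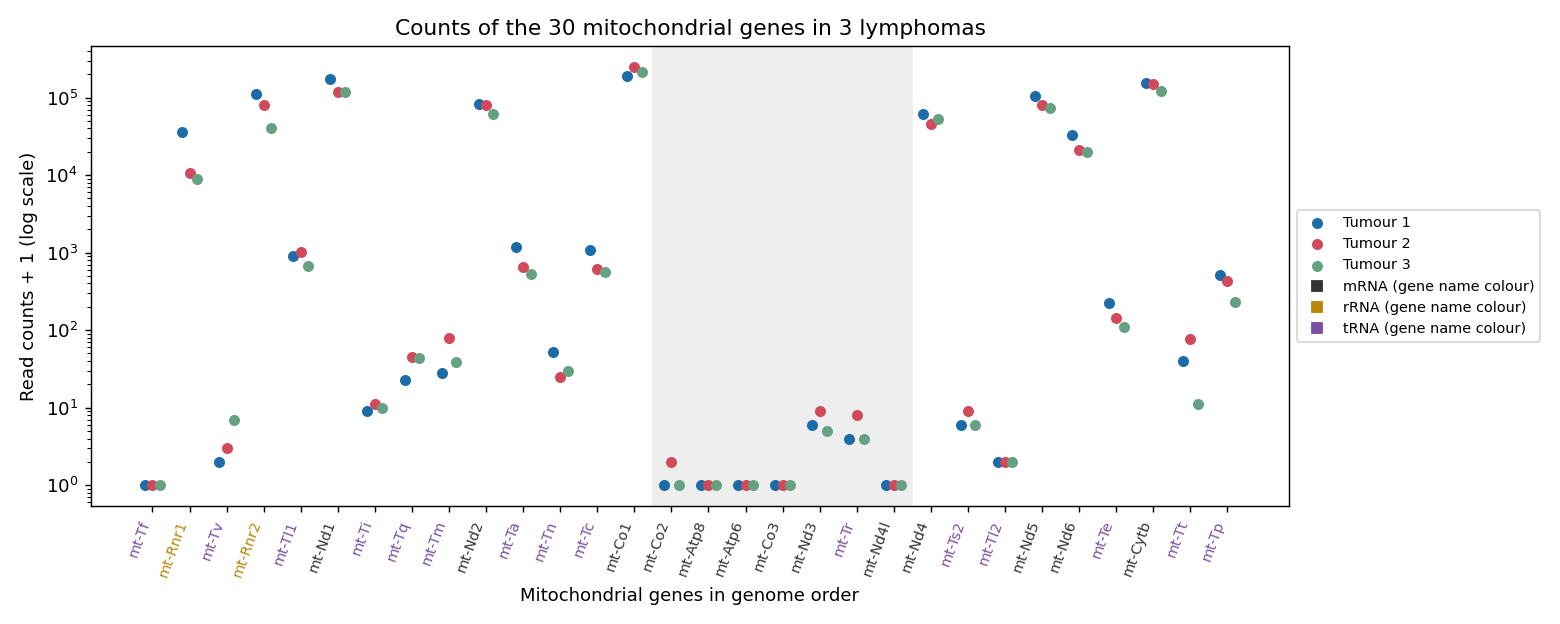
Counts + 1 on a log scale (y axis) of the 30 mitochondrial genes in genome order (x axis), with 1 point for each of the 3 tumours and the colour of the gene name giving the kind of RNA. Grey marks mt-Co2 to mt-Nd4l, where the 6 mRNAs have 0 to 8 counts, while the mRNAs to either side have 19992 to 249455.

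The mRNAs fell into 2 sets in their counts. mt-Nd1, mt-Nd2, mt-Co1, mt-Nd4, mt-Nd5, mt-Nd6 and mt-Cytb had between 19992 and 249455 counts in each tumour. The other 6 had 5, 9 and 4 counts in all in tumours 1, 2 and 3. mt-Nd3, a complex I subunit, had 5, 8 and 4 counts. mt-Co2, a complex IV subunit, had 0, 1 and 0 counts. mt-Co3 (complex IV), mt-Atp6 and mt-Atp8 (both of complex V, the ATP synthase) and mt-Nd4l (complex I) had 0. These 6 mRNAs are consecutive on the genome, from mt-Co2 at chrM:7013-7696 to mt-Nd4l at chrM:9877-10173, and mt-Tr, the tRNA for arginine that lies among them, had 3, 7 and 3 counts.

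Most of the mRNA sequence in this stretch is found again among nuclear transcripts. Each mitochondrial gene was divided into all windows of 50 bases, the read length, and each window was looked up in the nuclear transcripts of GENCODE M21 on either strand. Every one of the 635 windows of mt-Co2 had an exact match, as had 629 of 632 in mt-Atp6, 734 of 735 in mt-Co3, 293 of 299 in mt-Nd3 and 245 of 248 in mt-Nd4l. Among mRNAs with high counts, the share was 62.2% in mt-Nd4 (827 of 1329 windows), 51.1% in mt-Co1 (765 of 1496), 8.19% in mt-Nd2 and 7.61% in mt-Nd5. mt-Nd1, mt-Nd6, mt-Cytb and mt-Rnr1 had no such window, and 1.04% of those of mt-Rnr2 did.

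**Figure D2:**
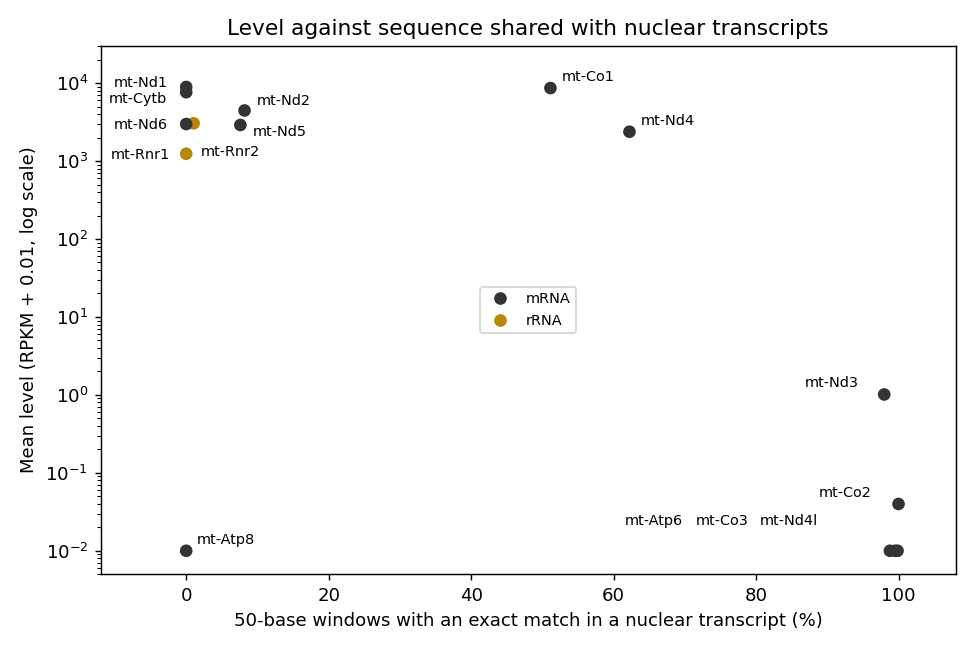
Mean level over 3 tumours (RPKM + 0.01, log scale, y axis) of each mitochondrial mRNA and rRNA against the percentage of its 50-base windows with an exact match in a nuclear transcript (x axis). Apart from mt-Atp8, genes at up to 62.2% have high levels, 5 mRNAs at 98.0% to 100% lie at or under 1.003 RPKM, and mt-Atp8 is at 0 with no matching window.

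The matches lie mainly on chromosome 1, where 7 unprocessed pseudogenes (Gm29216, Gm28661, Gm10925, Gm28437, Gm28438, Gm10222 and Gm28439) follow each other within 4663 bases (chr1:24611535-24616197) in the order and strand of mt-Co1 to mt-Nd4. Their identity to the mitochondrial genes was 98.8% to 100%. They held almost no reads, with 40, 33 and 20 counts in all in tumours 1, 2 and 3. All 15 nuclear genes that shared a window with a mitochondrial gene had 335, 324 and 269 counts together, of which the 3 on chromosome 2 (Gm13339, Gm13340 and Gm13341) had 183, 203 and 168. The mt-Co1 copy Gm13340 had 117, 137 and 119 counts, against 190736, 249455 and 215465 in mt-Co1. The treatment of reads that fit several places is not stated, and a low level of these 6 mRNAs and reads left uncounted cannot be told apart.

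mt-Atp8 was the exception, with no count and no matching window among its 155. It lies in the space of 230 bases between mt-Co2 and mt-Atp6, and a space of 233 bases separates the copies Gm28661 and Gm10925. The bases of that nuclear space are in no annotated transcript and were not compared. The gene also overlaps mt-Atp6 by 43 bases (chrM:7927-7969), shown in capitals with 10 bases to either side.
mt-Atp8/mt-Atp6: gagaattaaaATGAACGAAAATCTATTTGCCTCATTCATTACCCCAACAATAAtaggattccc
The capitals open with the start codon of mt-Atp6 and close with the stop codon of mt-Atp8, and both proteins are read from 1 RNA in different frames.

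Among the 7 mRNAs with counts, 5 encode complex I (NADH dehydrogenase) subunits. mt-Nd1 had 176281, 118259 and 118673 counts in tumours 1, 2 and 3. mt-Nd2 had 82195, 80247 and 62190. mt-Nd5 had 103963, 79207 and 73471. In each of these, tumour 1 was the highest. mt-Nd4 had 60937, 45310 and 53497 counts, and mt-Nd6 had 33382, 21356 and 19992. mt-Nd6, the only mRNA of the light strand, was the least abundant of the 5 in counts and showed the widest range of the 7 mRNAs, with 1.96 times as much CPM in tumour 1 as in tumour 3.

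The other 2 mRNAs encode the catalytic subunit of complex IV (cytochrome c oxidase) and cytochrome b of complex III. mt-Co1 had 190736, 249455 and 215465 counts, which correspond to 12641, 15292 and 12144 CPM. It was highest in tumour 2 and varied least, by 1.26-fold between the highest and the lowest tumour. mt-Cytb had 152298, 152019 and 121095 counts, or 10094, 9319 and 6825 CPM, a range of 1.48-fold.

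Between tumours, the mitochondrial mRNAs differed by less than 2-fold. The summed mRNA counts were 799797, 745862 and 664387, or 53007, 45723 and 37445 CPM, and the highest tumour exceeded the lowest by 1.42-fold. None of the 7 mRNAs reached a 2-fold difference between the highest and the lowest tumour, whereas 41.3% of 12445 genes at a mean of at least 1 CPM did, and 38.5% of 78 genes at a mean of at least 1000 CPM. Their median SD of log2 CPM between tumours was 0.33, against 0.44 over all genes and 0.41 over those at 1000 CPM or more. With tumour 1 left out the median of the mRNAs was 0.17. All mRNAs but mt-Co1 were highest in tumour 1, and 5 of the 7 were highest in tumour 1 and lowest in tumour 3, an order found in 18.2% of all genes. The members are cut from shared precursors and were therefore not independent.

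**Figure D3:**
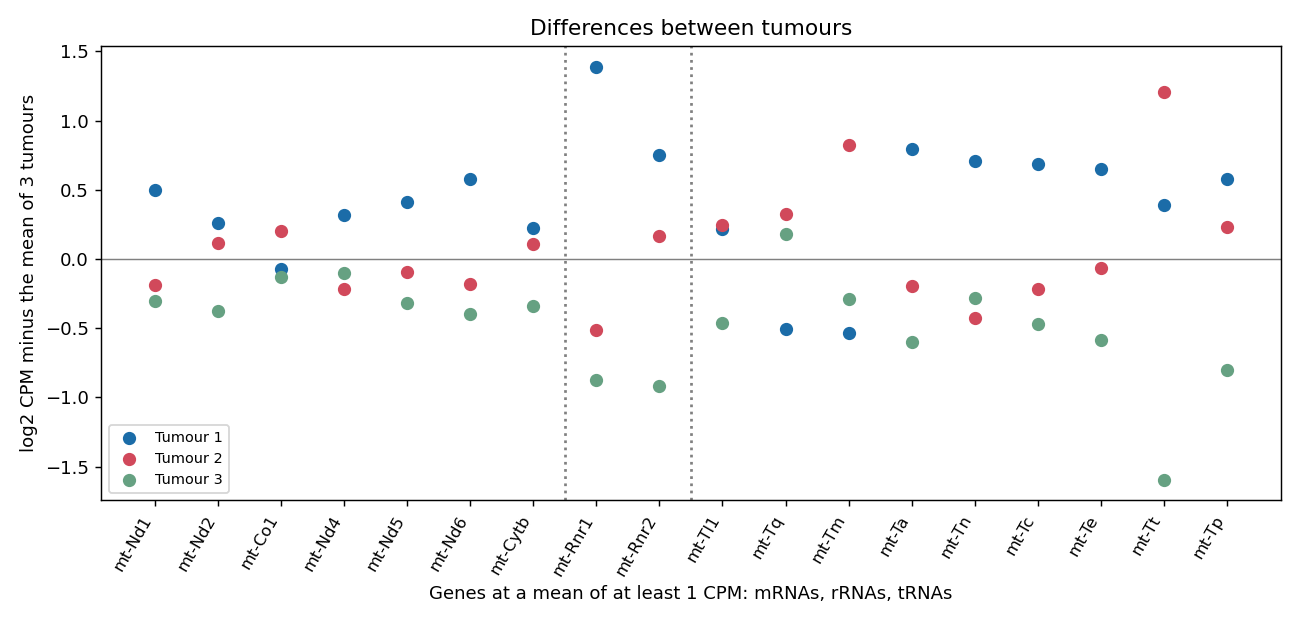
Log2 CPM of each tumour minus the mean of the 3 tumours (y axis) for the 18 mitochondrial genes at a mean of at least 1 CPM (x axis), split by dotted lines into mRNAs, rRNAs and tRNAs. The mRNAs lie within 0.58 of 0, while mt-Rnr1 reaches 1.39 in tumour 1 and mt-Tt -1.59 in tumour 3.

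The composition of the mRNA pool set tumour 1 apart. mt-Co1 gave 23.8% of mitochondrial mRNA counts in tumour 1 against 33.4% in tumour 2 and 32.4% in tumour 3. mt-Nd1 gave 22.04% in tumour 1, 15.9% in tumour 2 and 17.9% in tumour 3. mt-Cytb stayed near the same share, at 19.0%, 20.4% and 18.2%. By complex, complex I mRNAs held 57.1%, 46.2% and 49.3% of the counts (mean 50.9% ± 5.63, SD, n = 3). Complex III held 19.2% ± 1.09 and complex IV 29.9% ± 5.27, and complex V held 0%. Tumour 1 had more of complex I and less of complex IV than either other tumour, and without tumour 1 the means were 47.8% and 32.9%. The shares of complexes I, IV and V lack mt-Nd3, mt-Nd4l, mt-Co2, mt-Co3, mt-Atp6 and mt-Atp8, which had almost no counts. The pool behind all shares lacks these mRNAs as well.

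**Figure D4:**
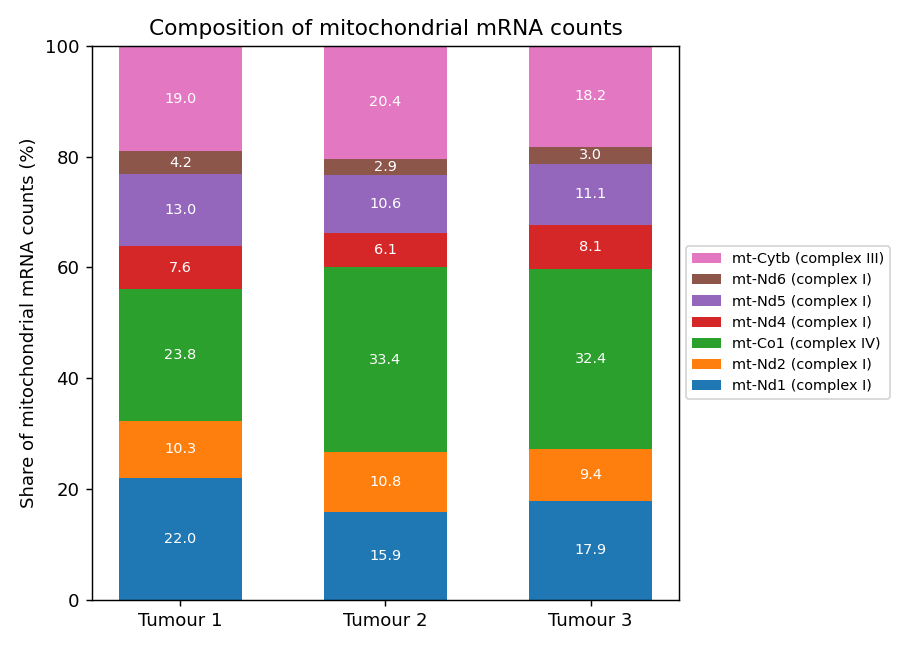
Share of mitochondrial mRNA counts in percent (y axis) taken by each of 7 mRNAs, stacked, in each tumour (x axis). The mt-Co1 band is 23.8% in tumour 1, 33.4% in tumour 2 and 32.4% in tumour 3.

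Levels of different genes were compared per length, as CPM per kilobase of gene (RPKM). mt-Nd1 came first, at 12208, 7575 and 6989 RPKM in tumours 1, 2 and 3 (8924 ± 2859, SD, n = 3). mt-Co1 followed at 8647 ± 1096 RPKM, and its values of 8182, 9898 and 7859.9 overlapped those of mt-Nd1. mt-Cytb came next at 7645 ± 1493 RPKM. These 3 did not differ beyond their spread, and mt-Nd1 exceeded mt-Co1 in 1 of 3 tumours. mt-Nd2 followed at 4455 ± 968 RPKM and lay below mt-Cytb in all 3 tumours, with a gap of 2.14 times the larger SD. mt-Nd6 (2985 ± 1120.1 RPKM), mt-Nd5 (2903 ± 782 RPKM) and mt-Nd4 (2378 ± 486 RPKM) closed the order, and neighbours among them differed by less than the SD. mt-Nd5 was above mt-Nd4 in each tumour, and mt-Nd6 was above mt-Nd5 in 1 of 3.

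The order depended on how much of a gene the reads can be assigned to. When each count was divided by the number of windows that lie in 1 mitochondrial gene only and have no exact nuclear match, mt-Co1 came first in every tumour, at 1827 ± 232 CPM per 100 usable windows. mt-Nd1 followed at 943 ± 302 and mt-Cytb at 799 ± 156, on the same scale. mt-Nd4 rose from the last to the 4th place, at 653 ± 133, above mt-Nd2 in every tumour. mt-Cytb alone held its rank in the mean order. The scale assumes that no read in a matching window was counted, which was not tested.

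**Figure D5:**
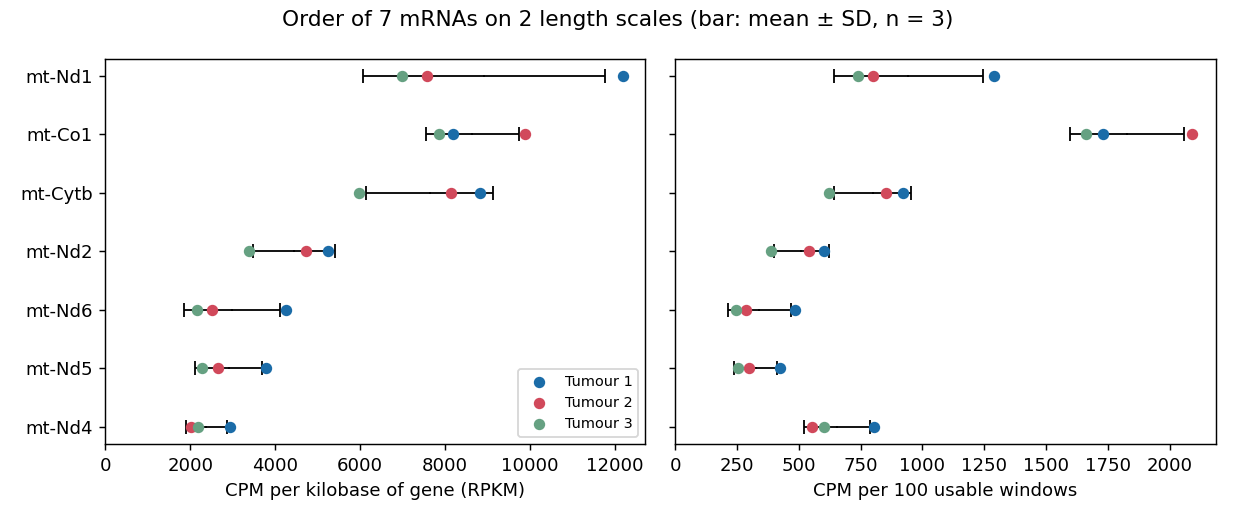
Levels of 7 mRNAs per tumour (points) with mean ± SD (bars, n = 3), as CPM per kilobase (left x axis) and as CPM per 100 usable windows (right x axis), in the order of the left panel. On the left mt-Nd1, mt-Co1 and mt-Cytb overlap, and on the right mt-Co1 lies above all others at 1827 ± 232.

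The ratio of mt-Co1 to mt-Cytb, which are both read from the heavy strand, does not depend on the library scaling. It was 0.927, 1.22 and 1.32 in tumours 1, 2 and 3 by RPKM, and 1.88, 2.46 and 2.67 by usable windows. On both scales tumour 1 was the lowest.

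mt-Nd6 allows a comparison of the strands. The planned ratio, RPKM of mt-Nd6 over the median of the 12 mRNAs of the heavy strand, was 2.908, 2.501 and 1.984, but that median is set by mRNAs with almost no counts. Against the median of the 6 heavy strand mRNAs with counts, the ratio was 0.635, 0.410 and 0.465 (0.503 ± 0.117, SD, n = 3), and 0.463 ± 0.0861 by usable windows, so that mt-Nd6 lay below the heavy strand median and not above it. Tumour 1 had the highest ratio on all 3 scales. The strand setting of the counting is not stated, and heavy strand RNA antisense to mt-Nd6 cannot then be told apart from mt-Nd6 itself. The 3′ ends differ as well, and the last 30 bases of mt-Nd6 (chrM:13552-13581, minus strand), mt-Co1 (chrM:6843-6872) and mt-Cytb (chrM:15259-15288) are shown with the stop codon, or the part of it that the gene holds, in capitals.
mt-Nd6: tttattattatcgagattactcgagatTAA
mt-Co1: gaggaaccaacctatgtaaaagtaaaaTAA
mt-Cytb: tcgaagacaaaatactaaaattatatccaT
The coding sequence of mt-Cytb ends in a single T, which the A tail completes to a stop codon. In human cells the mt-Nd6 transcript lacks a long A tail, which bears on its capture by oligo-dT.

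Of the 9 mitochondrial mRNAs and rRNAs at a mean of at least 1 CPM, the rRNAs had the widest ranges between tumours. mt-Rnr1, the 12S rRNA of the small subunit of the mitochondrial ribosome (chrM:70-1024), had 36378, 10506 and 8888 counts, or 2411, 644 and 501 CPM. The highest tumour exceeded the lowest by 4.81-fold, and the step lay between tumour 1 and the others: tumour 1 exceeded tumour 2 by 3.74-fold, and tumour 2 exceeded tumour 3 by 1.29-fold. mt-Rnr2, the 16S rRNA of the large subunit (chrM:1094-2675), had 110226, 79259 and 40853 counts, or 7305, 4859 and 2302 CPM, a range of 3.17-fold that fell in 2 steps of 1.504-fold and 2.110-fold. Both rRNAs thus passed 2-fold and were highest in tumour 1, as 13.2% of all genes were. The rRNAs are cut from shared precursors, and their ratio per length (mt-Rnr2 over mt-Rnr1) was 1.83, 4.55 and 2.77.

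Relative to mRNA, the rRNAs had 18.3%, 12.04% and 7.49% of the mRNA counts (12.6% ± 5.45, SD, n = 3). The rRNAs carry short tails, so a share that passes oligo-dT selection is not the share in the cell. Among 8 nuclear RNAs without A tails, only Rn7sk, the scaffold RNA of a transcription elongation regulator, reached a mean of 1 CPM. It had 2.78, 0.368 and 1.07 CPM in tumours 1, 2 and 3 and was highest in tumour 1. The other 7 together were at 0.331, 1.16 and 0.733 CPM and were lowest in tumour 1. The part of RNA selection in the rRNA difference was not tested.

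The tRNA genes held few counts, with 4054, 3091 and 2243 in all in tumours 1, 2 and 3. Their sum was 0.507%, 0.414% and 0.338% of that of the mRNAs. Most of it came from 5 genes, which held 96.1%, 91.9% and 93.6% of tRNA counts. mt-Tl1, a leucine tRNA that lies between mt-Rnr2 and mt-Nd1, had 916, 1007 and 672 counts. mt-Ta (alanine) had 1185, 643 and 529, mt-Tc (cysteine) 1066, 614 and 560, mt-Tp (proline) 510, 433 and 229, and mt-Te (glutamate) 220, 144 and 109. Of these 5, mt-Tl1 is transcribed from the heavy strand and the other 4 from the light strand. The sequences of the 3 most abundant are shown in the sense of the RNA (chrM:2676-2750 plus, chrM:5018-5086 minus and chrM:5192-5257 minus).
mt-Tl1: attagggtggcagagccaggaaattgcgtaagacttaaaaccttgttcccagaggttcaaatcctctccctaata
mt-Ta: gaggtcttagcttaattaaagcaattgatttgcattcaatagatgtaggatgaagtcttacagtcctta
mt-Tc: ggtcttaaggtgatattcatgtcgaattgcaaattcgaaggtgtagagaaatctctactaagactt
None ends in CCA, the triplet that an enzyme adds to mature tRNAs after cutting.

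Of the 15 tRNA genes analysed, 6 are of the light strand (mt-Tq, mt-Ta, mt-Tn, mt-Tc, mt-Te and mt-Tp). These held 75.3%, 61.5% and 66.8% of tRNA counts, and the 9 of the heavy strand the rest. The shares are not scaled by the read placements that touch 1 gene only. Such placements number 26 in mt-Tl1, 23 in mt-Ta, 51 in mt-Tc and 67 in mt-Tp. The genes not analysed include mt-Ty and mt-Ts1 of the light strand. Neighbours could differ widely: mt-Tn (asparagine), between mt-Ta and mt-Tc on the same strand, had 51, 24 and 29 counts. mt-Tv (valine), which lies between the 2 rRNAs, had 1, 2 and 6 counts although the rRNAs to either side had 8888 or more. Reads may come from uncut precursors or from the opposite strand, and these could not be separated from mature tRNA.

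At a mean of at least 1 CPM were 9 of the 15 tRNAs, and 7 of the 9 differed by 2-fold or more between tumours, beside the 41.3% of all genes. mt-Ta (2.63-fold), mt-Tp (2.60-fold), mt-Te (2.35-fold), mt-Tc (2.23-fold) and mt-Tn (2.20-fold) were highest in tumour 1. mt-Tm (methionine), with 27, 78 and 38 counts, and mt-Tt (threonine), with 39, 76 and 10 counts, were highest in tumour 2. mt-Tt had the largest range of all, 6.97-fold, on few counts, and its level in tumour 3 was 0.564 CPM. mt-Tl1 (1.63-fold) and mt-Tq (glutamine, 1.78-fold) stayed under 2-fold. Under a mean of 1 CPM were mt-Tf (phenylalanine, 0 counts), mt-Tv, mt-Ti (isoleucine), mt-Tr, mt-Ts2 (serine) and mt-Tl2 (the other leucine tRNA), with 0 to 10 counts per tumour.

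Over all kinds, 18 of the 30 mitochondrial genes reached a mean of 1 CPM, and 9 of the 18 differed by 2-fold or more, near the 41.3% of all genes. The 9 were the 2 rRNAs and 7 tRNAs. Without tumour 1 the count was 4 of 18 (23.8% of all genes), and without tumour 3 it was also 4 of 18 (24.7% of all genes). In 11 of the 18, tumour 1 was highest and tumour 3 lowest, an order seen in 18.2% of all genes.

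Nuclear genes encode all proteins that copy, transcribe and process the mitochondrial genome. Of 17 genes of mtDNA transcription and replication, 2 differed by 2-fold or more (41.3% of all genes did), and both were highest in tumour 1. Ssbp1, the single-strand DNA binding protein of mitochondria, was at 71.7, 46.8 and 31.2 CPM, and Top1mt, a mitochondrial topoisomerase, at 17.4, 6.44 and 8.74 CPM. Polrmt, the RNA polymerase, was at 117, 101 and 60.4 CPM, highest in tumour 1 and lowest in tumour 3. This order was found in 5 of the 17 genes, beside 18.2% of all genes. Tfam, which packages the DNA and opens the promoters, was at 109, 138 and 89.3 CPM and was highest in tumour 2. The partner of the polymerase at promoters, Tfb2m, was at 9.48, 10.2 and 7.78 CPM, and the elongation factor Tefm at 7.49, 14.2 and 9.86 CPM. Polg, the DNA polymerase, was at 172, 159.7 and 119.9 CPM and Twnk, the helicase, at 28.4, 33.0 and 32.9 CPM. Mterf1b was the lowest of the list, at a mean of 1.91 CPM.

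Of 30 genes of mitochondrial RNA processing and stability, 7 differed by 2-fold or more, beside 41.3% of all genes. Mtpap, the poly(A) polymerase that adds the A tails, was at 138, 79.9 and 58.1 CPM. Pnpt1, the nuclease of the RNA degrading complex, was at 58.6, 131 and 94.0 CPM, and Supv3l1, its helicase, at 97.5, 103 and 51.1 CPM. Mtpap was highest in tumour 1, and Pnpt1 and Supv3l1 in tumour 2, with Supv3l1 near the same level in tumour 1. Of the 7 genes past 2-fold, 2 were highest in tumour 1, 4 in tumour 2 and 1 in tumour 3. Among all genes, 13.2%, 12.8% and 15.4% passed 2-fold and were highest in tumours 1, 2 and 3. A link to the mitochondrial RNA levels was not tested. Trmu (tRNA thiolation) was highest in tumour 1, Taco1 (translation of mt-Co1) in tumour 3, and Mrm3 (methylation of the 16S rRNA) and Fastkd5 (precursor processing) in tumour 2. Lrpprc, which binds and stabilises the mRNAs, was at 181, 129 and 115 CPM. Slirp, its partner protein, was the lowest of the list at a mean of 1.14 CPM, with 16, 23 and 17 counts. CPM of these nuclear genes are not scaled by length, and reads of theirs left uncounted were not examined. Tbrg4 at 152, 283 and 178 CPM and Fastk at 172, 119 and 91.0 CPM, both of the FASTK family of mitochondrial RNA binding proteins, were under 2-fold.

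Regulators of mitochondrial biogenesis act on the nuclear genes of mitochondrial proteins. Of 8, 7 reached a mean of 1 CPM and 1 differed by 2-fold or more, beside 41.3% of all genes. Ppargc1b, a coactivator of mitochondrial gene programs, was at 34.8, 16.8 and 12.96 CPM. Its relative Ppargc1a was near 0, with 0, 0.123 and 0.0564 CPM. Pprc1, a further member of that family, was at 117, 122 and 139.7 CPM. The factors Nrf1 (62.7 ± 8.47 CPM), Gabpa (97.2 ± 8.05 CPM) and Esrra (29.4 ± 3.42 CPM), which bind promoters of nuclear mitochondrial genes, differed by at most 1.31-fold between tumours. Yy1 was at 183 ± 33.4 CPM and Myc at 784 ± 186 CPM, without a 2-fold difference.

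The proteins that the mitochondrial mRNAs join or meet are encoded in the nucleus. Of 77 mitoribosome genes at 1 CPM or more, 12 differed by 2-fold, beside 41.3% of all genes. The share of all genes was lower, at 30.1%, among those at a mean of at least 10 CPM. Median levels of the planned nuclear lists ran from 18.7 CPM (transcription and replication) to 80.0 CPM (biogenesis regulators). Of the 12 mitoribosome genes, 5 were highest in tumour 1, 6 in tumour 2 and 1 in tumour 3. These directions were held by 13.2%, 12.8% and 15.4% of all genes at 2-fold. Mrpl42 was at 160.3, 122 and 58.4 CPM, Mrps7 at 115.9 ± 18.2 CPM and Mrpl45 at 114.9 ± 37.8 CPM, while Mrpl53 was the lowest at a mean of 0.0817 CPM. Of 74 nuclear subunits of the respiratory complexes at 1 CPM or more, 12 differed by 2-fold (41.3% of all genes), 9 of them highest in tumour 1 (13.2% of all genes) and 3 in tumour 2 (12.8%). Their summed level was 11519, 9758 and 7603 CPM, in the order of the mitochondrial mRNAs. Of the 74, 29 had tumour 1 highest and tumour 3 lowest, against 18.2% of all genes. The planned lists had this order in 19 of 77 mitoribosome genes and 6 of 30 genes of RNA processing and stability. It was also found in 5 of 17 genes of mtDNA transcription and replication and in 1 of 7 biogenesis regulators. The catalytic core of the ATP synthase was abundant, with Atp5b at 2121, 2223 and 1136 CPM and Atp5a1 at 2330.1, 1259 and 953 CPM. In these libraries mt-Atp6 and mt-Atp8 had no count, and a low level and reads left uncounted cannot be told apart. Only 2 of the 632 windows of mt-Atp6 were usable. Atp5d was at 537, 367 and 229.7 CPM, and Cox8c, Cox8b, Cox4i2 and Cox7b2 had no count. Of 82 cytosolic ribosomal protein genes at 1 CPM or more, 33 had the same order of tumour 1 highest and tumour 3 lowest, and the full list of 87 such genes took 2.48%, 2.03% and 1.84% of the libraries.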

How the data were processed

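The deposited values are raw counts of reads per gene, which the authors made on mm10 with STAR 2.5.2b and featureCounts 1.6.0, with FastQC as quality control, per the submitters' processing notes. Not given in the sources used here are the annotation release, the strand setting and the treatment of reads that fit several places. Coordinates, lengths and sequences came from GENCODE M21, to which 37536 of 37646 identifiers matched.

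TMM factors (edgeR 4.0.16, R 4.3.3, filterByExpr with a minimum count of 10) scaled the library totals. Log2 CPM used a prior count of 2, and fold ranges between tumours come from that scale. The steps were run on simulated counts with a smaller spread than these libraries have. That run does not test the 2-fold rule at the spread seen here. Tables were handled in Python 3.11.15. With 1 group of 3 libraries of 15576975 to 17014022 counts, no contrast was fitted and no p-value computed. A gene was counted as different when its highest tumour reached 2 times its lowest. Tumour numbers follow accession order and serve as names. The common coefficient of biological variation was 0.445.

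Windows of 50 bases were compared with all nuclear GENCODE transcripts for exact matches, and no genome sequence was searched.

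The members and lists were chosen with earlier results of these data known. All mitochondrial mRNAs and rRNAs were named. Of the tRNAs, the 5 highest, those past 2-fold and those under 1 CPM were named. Of the lists of nuclear mitochondrial genes, the 3 highest, the lowest (with ties) and a fixed set of regulators were named. Ssbp1, Top1mt, Supv3l1, Trmu, Taco1, Mrm3, Fastkd5 and Rn7sk were named after their values were seen. The lists of nuclear subunits of the respiratory complexes, cytosolic ribosomal proteins and RNAs without A tails, and the scale of usable windows, were added after the data were seen.

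Alternatives covered scaling (DESeq2 1.42.0 size factors, library totals, nuclear genes only), filters, fold, prior count, length, denominators and leaving out each tumour.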

Additional observations from a re-analysis of the deposited data

How the results depend on the processing

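Of 71 alternative values, 54 were kept, 15 moved and 2 reversed. Kept means within a spread set from the SD of the tumours, or within 1.5 times a count. For the median SD of the mRNAs, the spread was the SD over the members. With so few tumours, a mean that leaves out a tumour cannot move beyond the SD of the tumours. For the library share, the complex shares and the strand, rRNA and tRNA ratios, such means were therefore kept by construction. The 9 mitochondrial genes past 2-fold became 5 of 13 at a mean of at least 10 CPM (30.1% of all genes), 15 at 1.5-fold (67.8%) and 3 at 3-fold (23.5%), and 4 to 7 when each tumour was left out in turn (23.8% to 28.8%), 4 without tumour 1 or tumour 3. The 22 of 131 nuclear genes of mitochondrial gene expression past 2-fold (41.3% of all genes) became 7 to 13 when each tumour was left out (23.8% to 28.8%), which compares fewer samples. The median SD of log2 CPM of the mRNAs was 0.22 for shares within the mRNA sum, and 0.17 to 0.42 with each tumour left out. By usable windows 1 of 7 mRNAs kept its rank, and 3 to 7 did with each tumour left out, 3 without tumour 1. Per length, complex I held 56.6% and complex IV 23.3%, and by usable windows complex III held 14.7%. The ratio of mt-Nd6 to the heavy strand, 2.46 as planned, reversed to the other side of 1, at 0.503 over mRNAs with counts and 0.463 by usable windows; mRNAs without counts lower the planned median. The mitochondrial share of the library was 4.65% to 5.60% with each tumour left out. The cause of the other shifts was not tested. No paired analysis was possible because all libraries form 1 group.

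Depth does not limit the abundant mRNAs and rRNAs. Their spread is between libraries, in which differences between tumours and in sorting or RNA selection cannot be told apart. Counts of 0 to 10 in 6 tRNAs allow no comparison between tumours.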

Other observations

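The nuclear genes with the most counts among those sharing a window with a mitochondrial gene were Gm13340 (117, 137 and 119 counts in tumours 1, 2 and 3), Gm11407 on chromosome 4, a copy of part of mt-Nd5 (70, 48 and 47 counts), Gm13341 on chromosome 2, a copy of mt-Co2 (52, 60 and 45 counts), and Gm4076 on chromosome 13, a further copy of part of mt-Nd5 (33, 33 and 27 counts). On chromosome 1, Gm28661, whose aligned bases equal those of mt-Co2, had 19, 18 and 6 counts, and Gm28439, whose 876 bases equal the start of mt-Nd4, had 4, 4 and 2. Gm13340 shared 411 windows exactly with mt-Co1, against 430 of Gm29216, which had 1, 1 and 0 counts.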
